A study of Drosophila melanogaster with 3 samples.

Results

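The genes described here are 8 markers and effectors of Drosophila glia: repo, moody, nrv2, wrapper, alrm, Gs2, Eaat1 and loco. They were taken by symbol as 8 of the 13988 features in single-cell count tables of the larval brain. Their levels, the shares of cells in which they were detected and their pairwise co-detection were measured over all called cells, and in cells with at least 2 unique molecular identifiers (UMIs, 1 per captured transcript) of repo. These repo-gated cells were set against cells with at least 1 UMI of dpn (deadpan, a transcription factor of neuroblasts) and against cells with at least 1 UMI of nSyb (neuronal Synaptobrevin, a synaptic vesicle protein of differentiated neurons).

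Glia of the fly brain fall into surface glia, which form the blood-brain barrier, cortex glia, which enclose neuroblasts and neuronal cell bodies, and astrocyte-like and ensheathing glia of the neuropil. Apart from the midline glia, these types express the homeodomain factor Repo, which is switched on by the transcription factor Gcm. Glia also clear glutamate from synapses with a membrane transporter, convert it to glutamine, and keep ion gradients with the sodium-potassium pump.

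The study compared 3 genotypes of larvae aged 72 to 96 h after egg laying and grown at 25 °C, with 1 library per genotype, all in batch 1. All 3 genotypes carried Sqh::GFP (a GFP fusion of the myosin regulatory light chain), the driver worGal4, active in neuroblasts, and UAS-mCherry::Jupiter, a microtubule marker. The control library had nothing further. The second library, called mud here, carried by its label the X-linked mutant allele mud4 as well, and the third, called nanobody, carried UAS-ALDInscuteable RockKinase domain-VhhGFP4-HA, which worGal4 expresses in the neuroblasts. Type 1 neuroblasts with their progeny were sorted by fluorescence, the labels name neuroblasts and neurons as the cell types, and how many brains were pooled is not given in the sources used here. With 1 library per genotype no difference between genotypes could be tested, and the level of mud RNA does not check the mud label, so all differences between libraries are differences between these libraries.

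Called cells numbered 14852 in control, 15194 in mud and 14415 in nanobody, with a median of 6176 to 6863 UMIs per cell. A called cell had at least 1000 UMIs, at least 500 detected genes and at most 20% mitochondrial UMIs. Between 59 and 78 cell barcodes were shared by any 2 libraries, and 1 by all 3, and they were kept as separate cells. Levels are CPM, the summed UMIs of a gene in a group of cells scaled to 1000000 UMIs. Bracketed ranges are exact 95% intervals (Poisson for UMIs, Clopper-Pearson for shares) and cover counting error only.

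In the BDGP6.54 assembly with the Ensembl release 115 annotation, joined on FlyBase identifiers, repo (FBgn0011701) lies on the forward strand at 3R:18236192-18239602. On the same arm, alrm (FBgn0039332) lies at 3R:25381065-25382781 and loco (FBgn0020278) at 3R:22619968-22639387, both on the reverse strand. On X lie moody (FBgn0025631, X:2044292-2050120, reverse strand) and Gs2 (FBgn0001145, X:11422832-11430197, forward strand). The remaining genes are nrv2 (FBgn0015777, 2L:6789770-6798862, reverse strand), Eaat1 (FBgn0026439, 2L:9333567-9341925, forward strand) and wrapper (FBgn0025878, 2R:22379637-22382675, forward strand). The span of alrm overlaps Fur1 on the same strand, so the division of reads between these genes depends on the authors' counting. repo, moody and loco each overlap annotated genes on the opposite strand.

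Cells with at least 2 UMIs of repo were rare in the sorted samples. They numbered 89 in control, which was 0.599% (0.482 to 0.737) of called cells. There were 107 in mud, or 0.704% (0.577 to 0.850), and 59 in nanobody, or 0.409% (0.312 to 0.528). At this gate the interval of nanobody lay below that of mud and overlapped that of control. With at least 3 UMIs of repo the shares were 0.397%, 0.316% and 0.257%, with control highest, and with the highest doublet scores removed they were 0.329%, 0.533% and 0.213%, so the order of control and mud depended on the gate. Their median repo count was 3, 2 and 3 UMIs in control, mud and nanobody, so the gate lay close to the typical count. The repo-gated cells had median totals of 9935, 9813 and 10413 UMIs. The dpn-gated cells numbered 457, 862 and 854 with medians of 12024, 9885.5 and 9196 UMIs, and the nSyb-gated cells numbered 5004, 5724 and 5218 with medians of 7946.5, 7678 and 8760.5 UMIs.

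The repo-gated cells held transcripts of other glial genes and also of neuronal genes. The summed level of 8 further glial markers (Gat, zyd, Mdr65, Gli, Cyp4g15, drpr, e and Tret1-1) was 453, 705 and 935 CPM in the repo-gated cells of control, mud and nanobody, against 71.0, 78.5 and 82.1 CPM in nSyb-gated cells. All 8 were detected in the repo-gated cells of each library, but e by only 1, 4 and 7 UMIs and Mdr65 by 3, 3 and 6. The highest of the 8 were zyd, at 185, 283 and 363 CPM, and drpr, at 167, 194 and 233 CPM. In nSyb-gated cells drpr also stood at 66.1, 71.5 and 74.2 CPM. The summed level of 5 neuronal markers (elav, nSyb, brp, Syt1 and Syx1A) was 1027, 772 and 548 CPM, against 3815, 3367 and 3390 CPM in nSyb-gated cells. elav, an RNA-binding protein of neurons, was found in 79.8%, 71.0% and 71.2% of the repo-gated cells, and its level in low barcodes of 20 to 200 UMIs, which were not called as cells and serve here as a measure of free RNA, was 2079, 2395 and 2031 CPM. Among 6 hemocyte markers NimC1, srp and eater had 0 UMIs in the repo-gated cells of each library, and the 4 fat body markers had none at all. The other hemocyte markers, Hml, He and Pxn, brought the hemocyte sum to 2, 2 and 1 UMIs. The 4 tracheal markers summed to 1, 8 and 2 UMIs and the 4 muscle markers to 2, 0 and 0. The highest doublet scores fell on 43, 31 and 30 repo-gated cells (48.3%, 29.0% and 50.8%), against 5.94%, 6.07% and 5.76% of all called cells. The part of doublets in the values below was not tested beyond removing these cells, and the calls and shares that this altered are given with them or in the closing section.

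repo, whose product sets glial fate, chose the gate, so its level there is a description. It stood at 304 CPM in control, 231 in mud and 237 in nanobody. In dpn-gated cells the level of repo was 3.79, 1.63 and 0.963 CPM, and in nSyb-gated cells 1.07, 0.688 and 0.566 CPM. Low barcodes held 3.75, 7.54 and 2.64 CPM of repo. The level of repo in nSyb-gated cells was below that of free RNA in each library, and in dpn-gated cells of control and nanobody the intervals overlapped. repo was found in 7, 9 and 6 dpn-gated cells, and 6, 6 and 3 dpn-gated cells were also repo-gated. Among nSyb-gated cells 18, 18 and 16 held repo, and 7, 11 and 6 were also repo-gated. The repo levels of both gates thus include cells of the repo gate. Of all repo UMIs in called cells, 87.7%, 78.9% and 73.9% lay in the repo-gated cells.

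Of the 7 other genes, 5 had at least 4-fold higher levels in repo-gated than in nSyb-gated cells in all 3 libraries, namely moody, alrm, Gs2, Eaat1 and loco. Over all genes tested, 5.84% met this rule, which compared CPM plus 5 and kept genes with at least 50 CPM in either gate. Taken by library, 5 of the 7 met it in control, 7 in mud and 7 in nanobody, against 6.82%, 8.32% and 9.9% of all genes. Over dpn-gated cells, 4 of the 7 met it, namely moody, wrapper, alrm and Gs2, where 6.03% of all genes did. These 4 were the genes past the rule in each library on its own, against 7.05%, 8.46% and 10.4% of all genes in control, mud and nanobody. nrv2 met the rule in neither comparison, and wrapper missed it over nSyb-gated cells because of its low level in control. The 7 genes were counted at any level, and only wrapper, at 15.8 CPM or less in both gates of control, missed the minimum of 50 CPM set for the share of all genes. With that minimum 5 of 6 met the rule over nSyb-gated and 3 of 6 over dpn-gated cells. With the highest doublet scores removed, nrv2 and wrapper joined the first group, and all 7 genes then met the rule over nSyb-gated cells. With a pseudocount of 20 CPM in place of 5, 2 of the 7 genes met the rule over dpn-gated cells, since moody (log2 ratio 1.97 in nanobody) and wrapper (0.84 in control) dropped out.

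**Figure D1:**
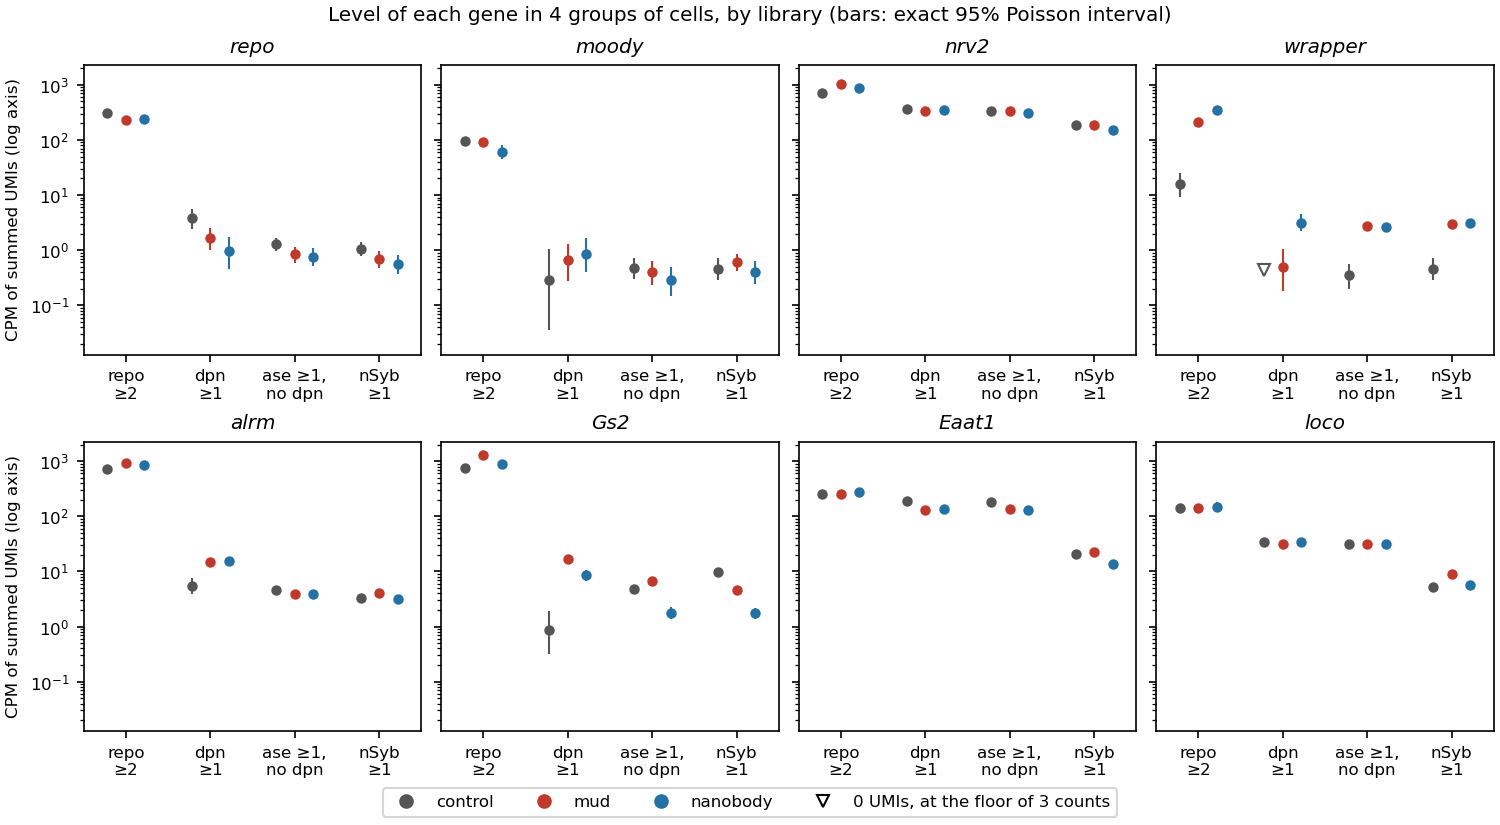
Level of each gene (CPM of summed UMIs, log axis) in repo-gated, dpn-gated, ase-positive dpn-negative and nSyb-gated cells of the 3 libraries, with exact 95% Poisson intervals. Eaat1 stood at 249 to 282 CPM in repo-gated and at 128 to 187 CPM in dpn-gated cells, whereas moody was below 1 CPM in every gate but the first.

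Surface glia are marked by moody, a G protein-coupled receptor needed for the tightness of the blood-brain barrier. Its level in repo-gated cells was 94.7 CPM (77.2 to 114.9) in control, 92.2 (76.4 to 110) in mud and 61.7 (45.5 to 81.9) in nanobody. In nSyb-gated cells it was 0.463, 0.609 and 0.404 CPM, a difference of 204-fold (126 to 349), 151-fold (101 to 233) and 153-fold (89.0 to 272). moody was thus low outside the repo-gated cells in every library. In dpn-gated cells it had only 2, 8 and 9 UMIs, or 0.291, 0.653 and 0.867 CPM. The ratio over dpn-gated cells was 325 (87.7 to 2720) in control, 141 (69.4 to 335) in mud and 71.3 (34.6 to 165) in nanobody. moody was detected in 49.4%, 47.7% and 33.9% of repo-gated cells and in 0.220%, 0.314% and 0.249% of nSyb-gated cells. After each cell was thinned to 1000 UMIs its share in repo-gated cells was 8.99%, 8.41% and 6.78%. With the highest doublet scores removed it was 67.4% in control and 20.7% in nanobody.

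loco encodes a regulator of G protein signalling that acts with Moody in surface glia and is also known from the asymmetric division of neuroblasts. Its level in repo-gated cells was 139 CPM (118 to 163) in control, 139 (119 to 161) in mud and 150 (124 to 180) in nanobody. In dpn-gated cells loco stood at 33.6, 31.8 and 34.3 CPM, and in nSyb-gated cells at 5.17, 8.94 and 5.60 CPM. The order repo-gated, dpn-gated, nSyb-gated held in each library with no overlap of the intervals. Low barcodes held 27.98 CPM (24.3 to 32.0), 55.9 (50.9 to 61.2) and 32.8 (29.2 to 36.6) of loco, so the dpn-gated level was below free RNA in mud and overlapped it in control and nanobody. The ratio over dpn-gated cells was 4.14, 4.37 and 4.39, whose intervals together ran from 3.35 to 5.43, so loco lay at the 4-fold rule and was under it once 5 CPM were added. loco was found in 75.3%, 65.4% and 62.7% of repo-gated cells (15.7%, 12.1% and 28.8% after thinning, and 48.3% in nanobody with doublet scores removed), and in 34.1%, 30.6% and 29.5% of dpn-gated cells (5.25%, 4.18% and 4.22% after thinning).

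wrapper, an immunoglobulin superfamily protein with which glia enclose neurons, was the most uneven of the genes across libraries. Its level in repo-gated cells was 15.8 CPM (9.19 to 25.3) in control, 212 (187 to 239) in mud and 350 (310 to 394) in nanobody, from 17, 271 and 272 UMIs. In nSyb-gated cells wrapper stood at 0.463, 2.93 and 3.15 CPM, which made the repo-gated level 34.1-fold (16.8 to 68.5), 72.4-fold (59.0 to 89.0) and 111-fold (90.8 to 136) higher. Each library thus had more wrapper in its repo-gated cells, with control the lowest in both gates. In control dpn-gated cells wrapper had 0 UMIs in 457 cells, which at the floor of 3 counts allows a share of cells with a UMI of up to 0.656%. The repo-gated level of control was 36.1 times that floor over the gate, and the exact interval of the ratio began at 26.3. In dpn-gated cells of mud and nanobody the level of wrapper was 0.489 and 3.18 CPM, also below free RNA. The cell with the most wrapper UMIs held 23.5%, 21.0% and 33.1% of them in the repo-gated cells. Without that cell in control, the log2 ratio over dpn-gated cells, with 5 CPM added, was 1.80, under the 4-fold rule.

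alrm, a leucine-rich repeat protein of astrocyte-like glia, was high in the repo-gated cells and low in the other gates. It stood at 712 CPM (662 to 764) in control, 942 (890 to 997) in mud and 862 (798 to 930) in nanobody. In nSyb-gated cells alrm was at 3.34, 4.07 and 3.17 CPM, 213-fold (178 to 257), 232-fold (200 to 270) and 272-fold (228 to 325) lower. In dpn-gated cells alrm stood at 5.53, 14.8 and 15.6 CPM, but from few cells, since 1 cell held 50%, 29.1% and 56.8% of its UMIs there. Its level in low barcodes was 22.5, 31.1 and 15.7 CPM, so neither gate exceeded the level of free RNA. Of the alrm-positive dpn-gated cells, however, 3 of 3, 4 of 16 and 3 of 4 also held a repo UMI. Among alrm-positive nSyb-gated cells it was 5 of 29, 7 of 46 and 3 of 16. The alrm levels of both gates thus include cells with repo, and the part of free RNA in them was not tested. alrm was detected in 33.7% (24.0 to 44.5), 51.4% (41.5 to 61.2) and 39.0% (26.5 to 52.6) of repo-gated cells, and in 0.580%, 0.804% and 0.307% of nSyb-gated cells.

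Gs2, glutamine synthetase, which turns glutamate into glutamine, reached 765 CPM (713 to 819) in control, 1310 (1248 to 1374) in mud and 890 (825 to 959) in nanobody. These UMIs came from few cells, as Gs2 was found in 17, 40 and 14 repo-gated cells (19.1%, 37.4% and 23.7%), and 1 cell held 28.2%, 14.0% and 21.4% of the Gs2 UMIs. In nSyb-gated cells Gs2 stood at 9.84, 4.68 and 1.74 CPM, and in dpn-gated cells at 0.874, 16.7 and 8.47 CPM. All of these were below the 96.1, 114.8 and 100.5 CPM of low barcodes. The ratio over nSyb-gated cells was 77.7 (69.0 to 87.5), 280 (244 to 322) and 512 (409 to 649), and in control 54.6% of the nSyb-gated Gs2 UMIs lay in 1 cell. That cell held 232 Gs2 UMIs, as did the richest repo-gated cell, and no called cell of control held more. The gates overlap, so this can be the same cell, counted on both sides of the control ratio.

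Eaat1, the glutamate transporter of glia, was not confined to repo-gated cells. Its level there was 249 CPM (220 to 280) in control, 258 (231 to 287) in mud and 282 (246 to 322) in nanobody. In dpn-gated cells it stood at 187, 128 and 137 CPM, so the repo-gated level was 1.33-fold (1.16 to 1.51), 2.02-fold (1.79 to 2.27) and 2.06-fold (1.78 to 2.38) higher. Low barcodes held 101, 114.0 and 90.7 CPM of Eaat1, so the dpn-gated level was above free RNA in each library but close to it in mud. The part of free RNA in the dpn-gated level was not tested. In nSyb-gated cells Eaat1 was 21.1, 22.7 and 13.6 CPM, which was 11.8-fold, 11.3-fold and 20.7-fold lower than in repo-gated cells. The share of dpn-gated cells with Eaat1 was 66.7% (62.2 to 71.0) in control, above the 42.7% (32.3 to 53.6) of repo-gated cells. In mud it was 53.6% against 48.6% (63.2% with doublet scores removed), and in nanobody 50.2% against 52.5%, with overlapping intervals. After thinning to 1000 UMIs the Eaat1 shares were 17.5%, 12.3% and 12.2% in dpn-gated and 18.0%, 17.8% and 30.5% in repo-gated cells, so the higher share in control dpn-gated cells was not seen at equal depth.

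nrv2, a beta subunit of the sodium-potassium pump, was the most widely detected of the genes. It stood at 706 CPM (657 to 758) in repo-gated cells of control, 1044 (989 to 1102) in mud and 861 (797 to 928) in nanobody. In dpn-gated cells nrv2 was at 370, 335 and 357 CPM and in nSyb-gated cells at 187, 186 and 151 CPM. The repo-gated level was 3.78-fold, 5.60-fold and 5.71-fold above nSyb-gated cells and 1.91-fold, 3.12-fold and 2.41-fold above dpn-gated cells. nrv2 was detected in 69.8%, 69.5% and 68.4% of all called cells and in 91.0%, 89.7% and 83.1% of repo-gated cells. Low barcodes held 302, 264 and 289.5 CPM of nrv2, below the dpn-gated and above the nSyb-gated level.

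The genes differed in where most of their UMIs lay. Of the alrm UMIs in called cells, 72.8%, 55.5% and 71.4% were in the repo-gated cells of control, mud and nanobody, and of those of moody 65.8%, 47.6% and 45.3%. For Gs2 the repo-gated share of UMIs was 55.1%, 48.8% and 46.4%, and for wrapper it was 17.3%, 26.5% and 26.7%. By contrast, 2.52%, 3.77% and 2.71% of Eaat1 UMIs, 6.83%, 7.0% and 5.22% of loco UMIs and 2.36%, 4.01% and 2.25% of nrv2 UMIs lay there. Most Eaat1 UMIs, 77.1%, 65.5% and 68.3%, were in cells with a UMI of ase (asense, a factor of type 1 neuroblasts and their daughters) but none of dpn, a gate added after values had been seen. In those cells Eaat1 stood at 180, 137 and 132 CPM and loco at 31.7, 31.5 and 31.0 CPM. The ase-positive cells also held 65.5%, 51.9% and 57.7% of the loco UMIs. They made up 38.3%, 35.4% and 34.7% of called cells, and held 48.2%, 42.3% and 42.6% of the nrv2 UMIs. Low barcodes held 27.98, 55.9 and 32.8 CPM of loco. The loco level of ase-positive cells was thus below free RNA in mud and overlapped it in control and nanobody.

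The share of positive cells was also followed over the number of repo UMIs per cell. moody was found in 0.197%, 0.333% and 0.245% of cells without repo, in 23.9%, 32.9% and 13.8% of cells with 1 UMI of repo, and in 60%, 45.8% and 36.4% of cells with 2. alrm likewise went from 0.482%, 0.826% and 0.315% without repo to 30.4%, 43.0% and 10.8% at 1 UMI. Cells with a solitary repo UMI, which numbered 46, 79 and 65 and lay outside the gate, thus held these genes far more often than cells with none. loco was found in 10.6%, 11.3% and 11.1% of cells without repo and in 43.5%, 59.5% and 40.0% of those with 1 UMI. Eaat1 went from 23.9%, 22.4% and 20.8% to 50%, 43.0% and 35.4% over the same step. The median depth of cells with 1 repo UMI was 5954, 6671 and 6561 UMIs, close to the 6519, 6150 and 6855 of cells without, whereas cells with more repo were deeper.

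**Figure D2:**
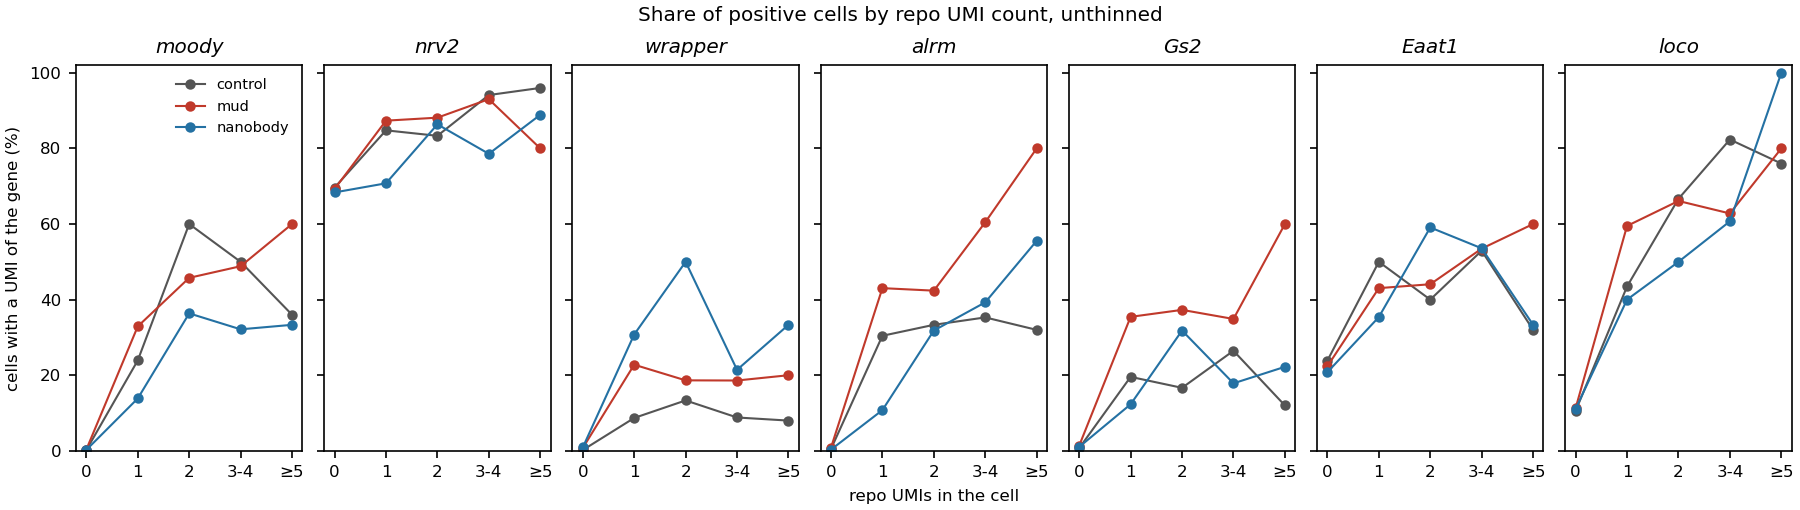
Share of cells with a UMI of each gene (percent, unthinned) against the number of repo UMIs in the cell, for the 3 libraries. The step from 0 to 1 repo UMI takes moody from 0.197% to 23.9% in control, while nrv2 starts at 69.6%, and the bin of 5 or more holds 25 control, 5 mud and 9 nanobody cells.

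Co-detection was expressed as the number of cells holding both genes over the number that the product of their shares gives. Of the 28 pairs, 10 exceeded this product at least 5-fold in all 3 libraries, against 0.212% of all pairs of genes detected at least as widely. That background set no upper limit on detection and so also held pairs with frequent genes, which could not reach 5-fold. The share of 0.212% is therefore not a like-for-like measure for rarely detected genes. All 10 pairs were among repo, moody, wrapper, alrm and Gs2, which form exactly 10 pairs. At this depth none of the 7 pairs with nrv2, none of the 7 with Eaat1 and none of the 7 with loco reached 5-fold in all libraries. repo and moody were found together 72.0, 49.5 and 52.7 times as often as the product in control, mud and nanobody. moody and alrm, markers of surface and astrocyte-like glia, reached 38.4, 34.3 and 60.1 times. alrm and Gs2 stood at 40.7, 19.9 and 30.7 times, and wrapper with Gs2 at 26.6, 6.0 and 10.3 times, the lowest of the 10 pairs in mud. repo with loco was just outside the rule with 5.83, 5.27 and 4.44 times, and Eaat1 with loco stood at 2.31, 2.12 and 2.30 times. A frequent gene such as nrv2 cannot exceed the product by much, because it is found in most cells. Eaat1, found in 24.1%, 22.7% and 21.0% of called cells, was also too frequent for any of its pairs to reach 5-fold. The failure of the pairs with nrv2 or Eaat1 at this depth was thus fixed by how often they were detected, and carries no result. With cells thinned to 1000 UMIs, 9 of the 28 pairs met the rule, and they were not the same pairs. moody with wrapper (lowest ratio 0), wrapper with alrm (2.37) and wrapper with Gs2 (4.28) dropped out, each on at most 4 shared cells per library, and repo with loco (6.92) and moody with loco (6.70) came in. The block of 10 pairs and the absence of loco from it thus hold at the depth of the data and not at equal depth.

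**Figure D3:**
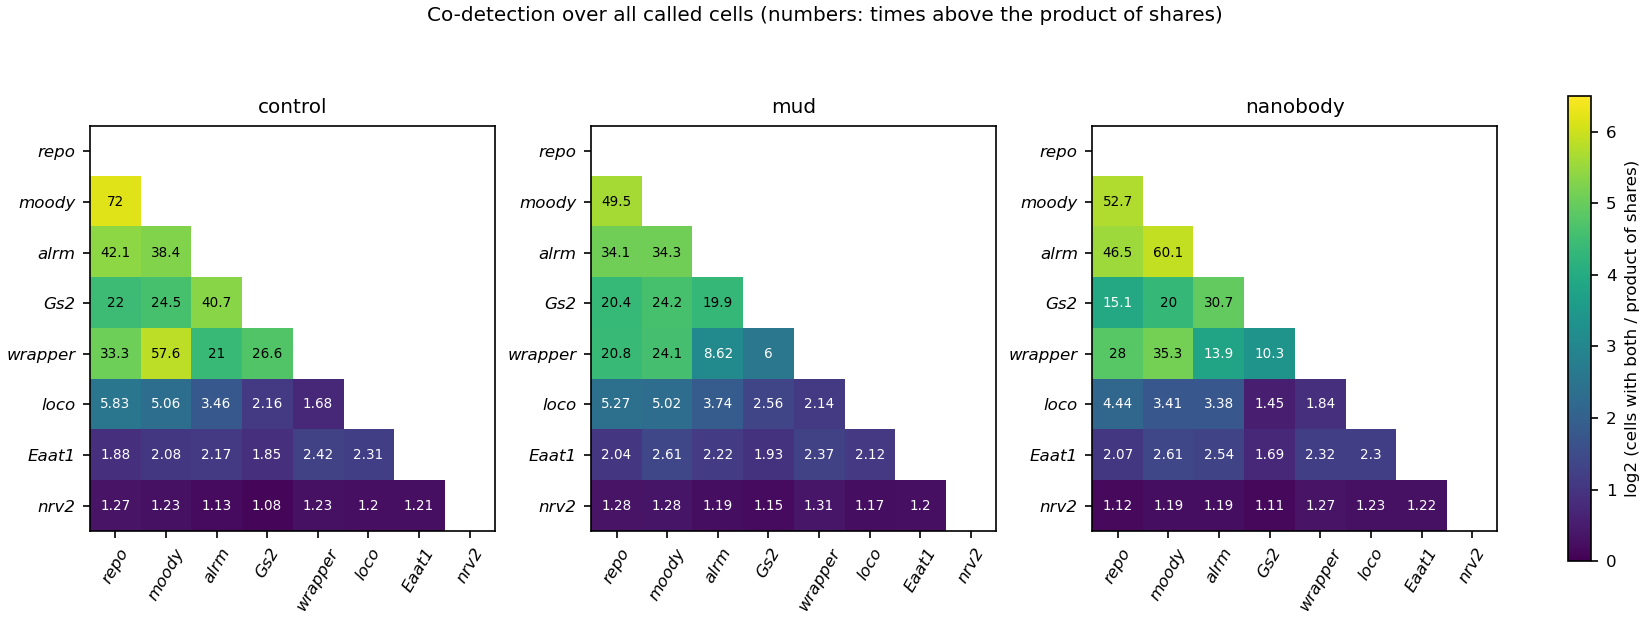
Cells holding both genes of a pair over the number expected from the product of their shares, for all called cells of each library (colour: log2, numbers: the ratio itself). The block of repo, moody, alrm, Gs2 and wrapper ranges from 6.0 to 72.0, and every pair with nrv2 lies between 1.08 and 1.31.

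Within the repo-gated cells a pair cannot exceed the product by more than 1 over the larger share, which lay between 1.90 and 2.97 for the pairs of moody, alrm, Gs2 and Eaat1, so these ratios cannot be set against those over all cells. Of the Gs2-positive cells, 94.1%, 72.5% and 78.6% also held alrm, which was 2.79, 1.41 and 2.02 times the product of shares. Likewise 17 of 17, 27 of 40 and 12 of 14 of the Gs2-positive cells held Eaat1, 2.34, 1.39 and 1.63 times the product. The surface glia marker moody also exceeded the product with each of these genes, with alrm 1.15, 1.22 and 1.54 times, with Gs2 1.43, 1.31 and 1.26 times and with Eaat1 1.17, 1.29 and 1.62 times. Sharing cells beyond the product was thus not limited to the glutamate and astrocyte genes. wrapper and alrm were found together 1.98, 0.681 and 0.898 times as often as the product, and wrapper with loco 0.738, 0.917 and 0.797 times. wrapper-positive cells held Eaat1 in 8 of 9, 16 of 20 and 16 of 20 cases, 2.08, 1.65 and 1.52 times the product. All of these pairs share the depth of the cell.

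Sorting the repo-gated cells by the 3 subtype markers alrm, wrapper and moody gave few cells per class. alrm without the other markers was found in 13, 20 and 8 cells, which was 14.6% (8.01 to 23.7), 18.7% (11.8 to 27.4) and 13.6% (6.04 to 25.0). moody alone was found in 25 control cells, 28.1% (19.1 to 38.6), 15 mud cells, 14.0% (8.06 to 22.1), and 3 nanobody cells, 5.08% (1.06 to 14.1). wrapper alone was found in 1, 9 and 8 cells, or 1.12% (0.0284 to 6.10), 8.41% (3.92 to 15.4) and 13.6% (6.04 to 25.0). The moody-only share of nanobody thus lay below that of control with no overlap of the intervals, and the wrapper-only shares overlapped only narrowly with that of control. Cells with alrm and moody together numbered 11, 28 and 8, and all 3 markers occurred in 6, 4 and 4 cells. The cells with all 3 had medians of 18899.5, 15949.5 and 19480.5 UMIs, well above the gate as a whole. None of the 3 markers was found in 31, 24 and 20 cells, or 34.8%, 22.4% and 33.9%. Moody-only cells of control were shallow, with a median of 6311 UMIs.

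**Figure D4:**
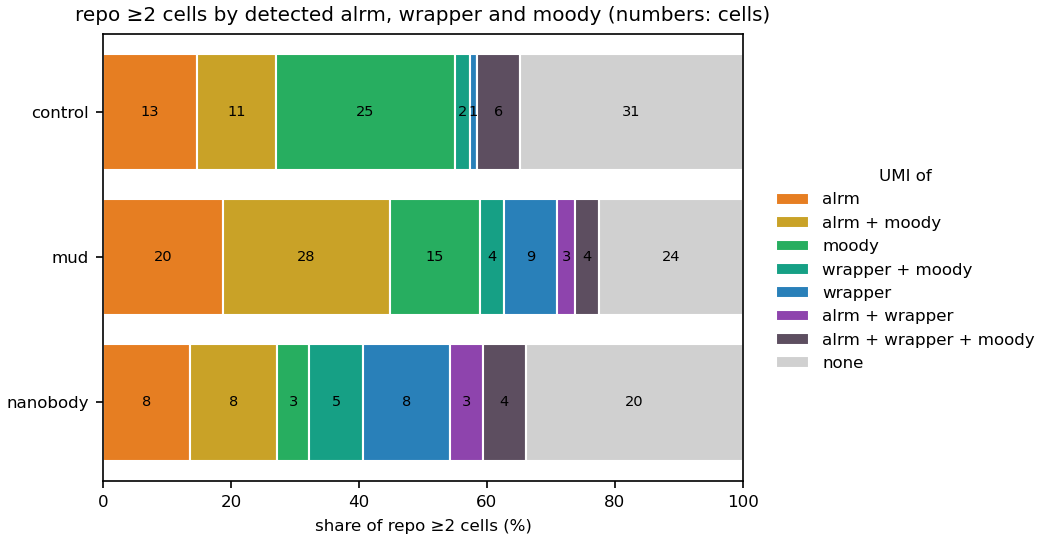
Share of the repo-gated cells (percent) by which of alrm, wrapper and moody had a UMI, with the number of cells in each class. moody alone makes up 25 of 89 control cells and 3 of 59 nanobody cells, and wrapper alone 1 and 8.

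Cells without any repo UMI could hold several of the narrowly detected genes. At least 2 of moody, wrapper, alrm and Gs2 were found in 25, 55 and 25 repo-gated cells (28.1%, 51.4% and 42.4%). The same was true of 23, 44 and 32 cells with no repo UMI, 0.156%, 0.293% and 0.224% of such cells. In number they were thus close to the repo-gated cells of this kind. They were chosen by 4 of the genes, so their values are a description: Gs2 stood at 1762, 1387 and 2440 CPM in them and wrapper at 119, 261 and 869 CPM. Eaat1 and loco, which did not choose them, stood at 309, 313 and 335 CPM and at 35.1, 69.7 and 45.1 CPM. Their Eaat1 level was therefore near that of repo-gated cells, and their loco level was lower. High doublet scores fell on 13, 13 and 14 of these cells.

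Between libraries, wrapper was the gene that stood apart in the repo-gated cells. Its level was 13.4-fold (8.23 to 23.4) higher in mud than in control and 22.2-fold (13.6 to 38.6) higher in nanobody than in control. It was the 1 gene of 8 past 2-fold in each comparison, where 5.48% of all genes were past 2-fold in either direction for mud and 8.02% for nanobody. By direction, 4.29% of all genes were at least 2-fold higher and 1.19% lower in mud, and 5.03% higher and 2.99% lower in nanobody. The comparisons share the control library and its 17 wrapper UMIs, so they are not independent. The share of repo-gated cells with wrapper, 10.1%, 18.7% and 33.9% in control, mud and nanobody, differed less than the level. Its intervals overlapped between control and mud but not between control and nanobody. Over all called cells wrapper was found in 43, 149 and 166 cells, and its level was 0.903, 9.06 and 8.97 CPM. The median log2 ratio over all genes tested was -0.14 for mud and -0.08 for nanobody, and with 5 CPM added that of wrapper was 3.38 and 4.09.

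The other 7 genes lay within 2-fold of control by summed UMIs. Gs2 was 1.71-fold (1.58 to 1.86) higher in mud and 1.16-fold (1.05 to 1.29) in nanobody, nrv2 1.48-fold and 1.22-fold, and alrm 1.32-fold and 1.21-fold. moody was at 0.974 (0.741 to 1.28) of control in mud and at 0.652 (0.453 to 0.928) in nanobody, and repo itself at 0.762 and 0.780. The ratios of Eaat1, 1.04 and 1.13, and of loco, 0.999 and 1.08, had intervals that held 1. With the highest doublet scores removed, alrm and Gs2 joined wrapper past 2-fold in mud, with log2 ratios of 1.40 and 1.51, and moody in nanobody, with -1.86. With each cell weighted equally, as the mean of per-cell CPM, Gs2 was past 2-fold in mud (log2 ratio 1.62) and nanobody (1.38) and moody in nanobody (-1.36). Without the cell richest in Gs2 in each library, the log2 ratio of Gs2 in mud was 1.02. The spread between libraries of the same genotype is unknown, so none of these differences can be set against replicate error.

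In dpn-gated cells Eaat1 was lower in mud and nanobody than in control. Its level there was 0.682 (0.634 to 0.735) of control in mud and 0.729 (0.676 to 0.787) in nanobody. In the same cells loco stood at 0.946 (0.802 to 1.12) and 1.02 (0.861 to 1.21) of control. The dpn-gated cells of control were also the deepest, and there were 457 of them against 862 and 854. Over all called cells Eaat1 was at 0.790 and 0.727 of control. In nSyb-gated cells Eaat1 was at 1.08 (0.988 to 1.18) of control in mud, so not lower, and at 0.645 (0.583 to 0.714) in nanobody. There nrv2 was at 0.999 (0.969 to 1.03) and 0.807 (0.782 to 0.833) of control. In the same nSyb-gated cells loco was 1.73-fold (1.47 to 2.04) higher in mud and 1.08-fold (0.905 to 1.30) in nanobody.

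**Figure D5:**
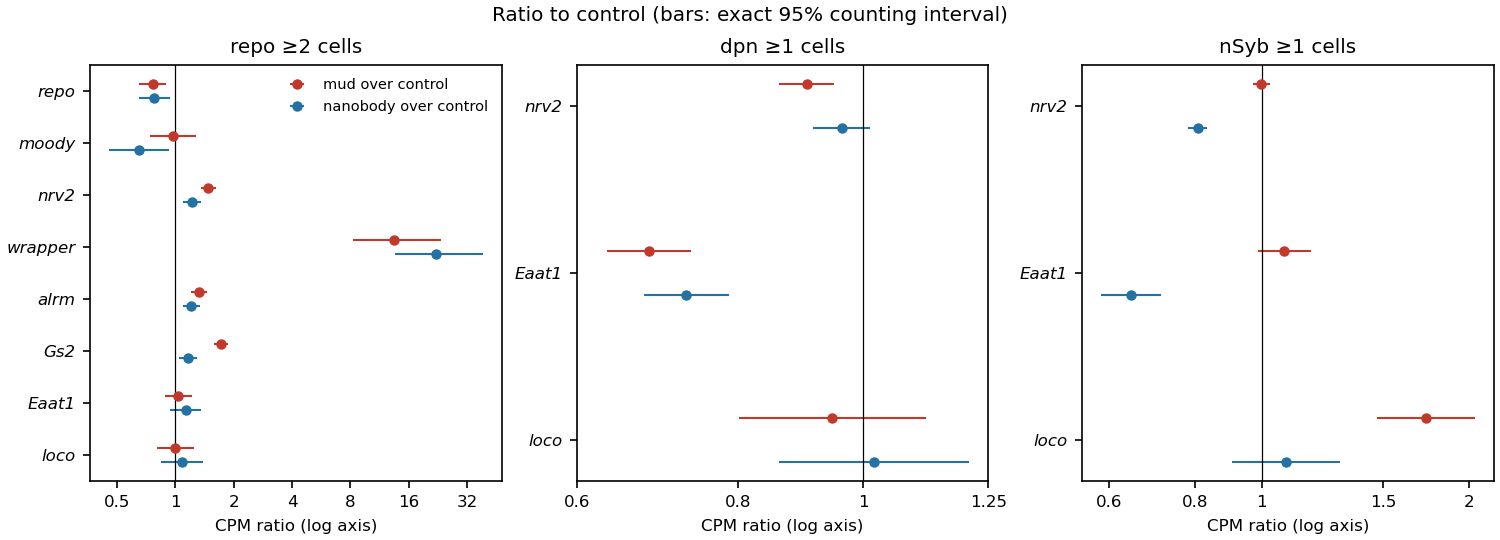
Ratio of the CPM of each gene in mud and in nanobody to control (log axis, 1 marked) in repo-gated, dpn-gated and nSyb-gated cells, with exact 95% counting intervals. wrapper lies at 13.4 and 22.2 in repo-gated cells, and Eaat1 at 0.682 and 0.729 in dpn-gated cells, where the 3 broadly detected genes are drawn.

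After values had been seen, the repo-gated cells were divided by a UMI of gcm, the factor that starts the glial programme. Cells with gcm numbered 72 in control (80.9%), 65 in mud (60.7%) and 29 in nanobody (49.2%). In these cells wrapper stood at 12.6, 13.6 and 27.9 CPM, against 24.5, 479 and 625 CPM in those without gcm. The high wrapper level of mud and nanobody thus lay in the cells in which gcm was not detected. moody showed the opposite order in control and mud, with 116 and 114 CPM with gcm and 34.9 and 62.4 CPM without, and in nanobody it was 64.2 and 59.6 CPM. alrm was at 638, 984 and 774 CPM with gcm and at 916, 885 and 937 CPM without. The neuronal gene elav was at 682, 559 and 235 CPM with gcm and at 360, 158 and 210 CPM without. Its part in these values was not tested.

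Other glial genes were read from lists of pathways, as counts at least 4-fold higher in repo-gated than in nSyb-gated cells in all libraries, where 5.84% of all genes met the rule. The lists were counted at any level, without the minimum of 50 CPM behind that share. Among 9 identity and signalling genes 5 met it, namely gcm, its paralog gcm2, the repressor ttk, the ETS factor pnt and the FGF receptor htl, with median log2 ratios of 3.46, 3.28 and 3.66 in control, mud and nanobody against -0.08, -0.22 and -0.20 over all genes. All but gcm2 of these 5 had 50 CPM in either gate of every library. The lowest of the 9 genes, the receptor Pvr, stood at 0, 10.2 and 1.29 CPM in repo-gated cells. Of 17 barrier and septate junction genes 4 met it, the sugar transporter Tret1-1 and the matrix genes vkg, Col4a1 and SPARC, while the 17 had medians of 0.56, 0.87 and 0.64. With the minimum, 1 of 7 met it, SPARC. SPARC stood at 166, 165 and 122 CPM in repo-gated cells but also at 118, 59.4 and 111 CPM in dpn-gated cells. vkg was found in 2.25%, 4.67% and 8.47% and Col4a1 in 6.74%, 4.67% and 10.2% of repo-gated cells. Mdr65, a drug exporter of the barrier, was at 2.78, 2.35 and 7.72 CPM in the repo-gated cells, and Nrx-IV, a septate junction protein and the lowest of the 17, at 38.1, 53.2 and 25.7 CPM against 113, 97.1 and 113 CPM in nSyb-gated cells. The cortex and ensheathing list had 3 of 8, the calcium exchanger zyd, axo and the sugar transporter rumpel, with zyd at 185, 283 and 363 CPM and the adhesion molecule Fas2 lowest at 220, 278 and 350 CPM against 550, 771 and 591 CPM. The cytochrome P450 Cyp4g15 of that list stood at 16.7, 143 and 167 CPM, control being lowest as for wrapper.

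The astrocyte and transmitter list had 1 of 11 higher, the GABA transporter Gat at 18.6, 44.6 and 52.7 CPM, which the minimum would leave out, and 3 lower, speck, Gs1 and Eaat2. Next after Gat came the receptor Tre1 and the glutamate dehydrogenase gene Gdh, the latter at 396, 258 and 505 CPM against 132, 145 and 126 CPM. Gs1 and Eaat2 are paralogs of Gs2 and Eaat1 and had the reverse pattern. Eaat2 was at 0, 4.69 and 0 CPM in repo-gated and at 53.6, 54.1 and 69.8 CPM in nSyb-gated cells. Gs1 was at 1.86, 7.82 and 3.86 CPM against 82.2, 77.5 and 74.9 CPM. The same division was seen for the pump subunits, among 11 genes for ions and gap junctions of which 1 was higher, nrv1, and 2 lower, nrv3 and the bicarbonate transporter Ndae1. nrv3 stood at 138, 269 and 145 CPM in repo-gated and at 2307, 2426 and 2129 CPM in nSyb-gated cells, while nrv1 stood at 140, 135 and 215 CPM against 7.55, 7.68 and 7.25 CPM. Atpalpha, the catalytic subunit of the pump, was at 859, 1162 and 998 CPM in repo-gated and 1122, 1064 and 861 CPM in nSyb-gated cells. Of 7 lipid genes 4 were higher, Obp44a, the fatty acid binding protein fabp, the lipid droplet protein Lsd-2 and the apolipoprotein D homolog GLaz, with medians of 3.34, 4.07 and 4.64. The gap junction genes ogre and Inx2 came next after nrv1 in their list. ogre stood at 819, 1040 and 1230 CPM in repo-gated cells against 213, 298 and 278 CPM in nSyb-gated cells. In dpn-gated cells, however, ogre was at 657, 698 and 813 CPM. Inx2 was there at 380, 267 and 367 CPM, against 495, 363.5 and 534 CPM in repo-gated cells. nrv1 was at 2.91, 2.61 and 7.32 CPM in dpn-gated cells. The lipocalin NLaz was lowest of the lipid genes, at 1.86, 6.25 and 0 CPM against 19.3, 20.6 and 23.4 CPM. Obp44a reached 2519, 9673 and 18190 CPM in the repo-gated cells, again lowest in control. It was found in 23.6%, 55.1% and 59.3% of them, and 1 cell held 19.8%, 17.8% and 40.9% of its UMIs there. Low barcodes held 525, 983 and 1856 CPM of Obp44a, also lowest in control.

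Within the repo-gated cells, the genes most like each of the 7 were ranked by the log2 ratio of CPM plus 50 between cells with and without it, taking the lowest of the 3 libraries over 1611 genes. For moody these were CG9336, CG1124 and zyd, with lowest ratios of 1.51, 1.18 and 1.07. For wrapper they were zyd, CG7781 and CG9686, with 2.13, 2.00 and 1.95. For alrm they were ImpE1, Gs2 and CG42346, with 2.68, 2.11 and 1.86, and for Gs2 the receptor gene fz2, axo and alrm, with 2.51, 1.84 and 1.54. alrm and Gs2 were thus named by each other. For Eaat1 they were Gs2, axo and CG4409, with 3.59, 2.89 and 2.23. For nrv2 they were Obp44a, fabp and alrm, with 5.33, 3.31 and 3.09, but 8, 11 and 10 cells lacked nrv2. For loco the leading genes were nrv1, CG13220 and Gyg, with 0.85, 0.63 and 0.62, lower than for the other genes. These ratios describe 89, 107 and 59 cells and carry no test.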

How the data were processed

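The deposited matrices hold unnormalized UMI counts for every barcode and were written by Cell Ranger 9.0.1, per the file headers. Seurat is named in the submitters' processing notes, with no version. The build, the annotation and the counting of intronic reads are not given in the sources used here. Library totals were 120307337 (control), 125857942 (mud) and 127824556 (nanobody) UMIs. Cells were called at 1000 UMIs, 500 genes and 20% mitochondrial UMIs, and doublets were kept. As an alternative, the top scores of a simulated-doublet score were removed at 0.4% per 1000 cells. UMIs were summed per gate and library and divided by the total (CPM). Fold rules used log2 of CPM plus 5, and thinning drew 1000 UMIs per cell with seed 7. Gates can overlap: 7, 11 and 6 repo-gated cells were also nSyb-gated, and 6, 6 and 3 were dpn-gated.

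With 1 library per genotype no test was run. The rule for named genes took the 8, the 3 highest and the lowest gene of each list, and the 3 genes most like each of the 8 other than repo. Further list genes, the ase gate and the gcm division were chosen after values were seen. The members and lists were chosen with earlier results of these data known. Of the list genes, 3 were matched through older symbols in RefSeq synonyms. Ratios and intervals were tested on simulated counts. Python 3.11.15, numpy 2.4.6, scipy 1.17.1, pandas 2.3.3, scikit-learn 1.9.0 and matplotlib 3.10.9 were used.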

Additional observations from a re-analysis of the deposited data

How the results depend on the processing

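The share of repo-gated cells was 0.329%, 0.533% and 0.213% in control, mud and nanobody with the highest doublet scores removed, 0.909%, 1.22% and 0.860% with a gate of at least 1 repo UMI, and 0.397%, 0.316% and 0.257% with at least 3. The median share of positive cells over the 7 genes was 42.7%, 48.6% and 39.0% in control, mud and nanobody, and 15.7%, 17.8% and 28.8% after thinning to 1000 UMIs. With a pseudocount of 20 CPM, 2 genes were at least 4-fold above dpn-gated cells in place of 4. Past 2-fold in mud were 3 genes with doublet scores removed, 2 with the mean of per-cell CPM (Gs2 joined with a log2 ratio of 1.62), and 2 without the cell richest in each gene. Past 2-fold in nanobody were 2 genes with doublet scores removed and 3 with the mean of per-cell CPM, where moody stood at -1.36 and Gs2 at 1.38 on the log2 scale. Over the 11 alternatives the log2 ratio of wrapper ran from 2.63 to 4.04 for mud and from 3.37 to 5.48 for nanobody. Of 722 log2 ratios under alternatives, 690 kept their side of the fold rule, 5 dropped under it, 27 rose past it and 0 changed sign while called. Leaving out the cell richest in a gene, a minimum of 4000 UMIs and the 50 CPM minimum for the 7 genes were chosen after seeing the data. No library could be left out, since each genotype has 1. No paired analysis was possible because the groups share 1 replicate number and hold 1 library each. The number of repo-gated cells, 59 to 107 per library, limits every share given within them.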
